A study of Mus musculus with 6 samples.

Results

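Chromatin accessibility at the Ms4a gene cluster was followed in the peripheral blood of mice by ATAC-seq, an assay in which the Tn5 transposase cuts open DNA. The 9 members were Ms4a1, Ms4a2, Ms4a3, Ms4a4b, Ms4a4c, Ms4a6b, Ms4a6c, Ms4a6d and Ms4a7, neighbours within 391 kb of chromosome 19 (GRCm39, chr19:11227039-11618215). A peak was taken as a member peak when its summit lay in the body of a member or within 3 kb of one of its annotated starts. Of 250978 peaks in the 6 libraries, 60 met this rule. Peaks sharing at least 1 bp were merged into 62876 regions, and 16 regions whose tallest summit met the rule were taken as member regions. They held 57 of the member peaks, while the other 3 lay in the shoulder of a taller region by the start of the non-member gene Gm8369. In all, 7 of the 9 genes had at least 1 peak.

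The study housed male C57BL/6j mice, 8 weeks old at purchase, in a hypobaric chamber for 4 weeks and returned them to normal oxygen, a phase termed high altitude de-acclimatization (HADA), traced for 4 weeks. Control mice stayed at normal oxygen, and 3 libraries of each group were deposited. The day of blood collection for these libraries, and whether each came from a separate mouse, were not given in the sources used here, so p-values measure the spread between libraries, which may be technical. Each library was made from approximately 50000 unsorted white blood cells after red cell lysis, hence every value below is an average over a mixture of blood cells, in which more cells of a type and more open chromatin per cell cannot be told apart.

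The Ms4a genes encode small proteins that cross the cell membrane several times and act as parts or regulators of receptors. The family lies side by side in the genome, yet its members mark different blood lineages. Ms4a1 encodes CD20, the surface marker of B cells. Ms4a4b and Ms4a6b are known from T cells, and Ms4a4c, Ms4a6c, Ms4a6d and Ms4a7 from monocytes and macrophages. Ms4a2 encodes the beta chain of the high-affinity IgE receptor of mast cells and basophils, and Ms4a3 marks myeloid progenitors. Because these genes sit next to each other on the same DNA, the cluster allows its B cell, T cell and myeloid members to be compared within a library, at the same depth.

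**Figure D1:**
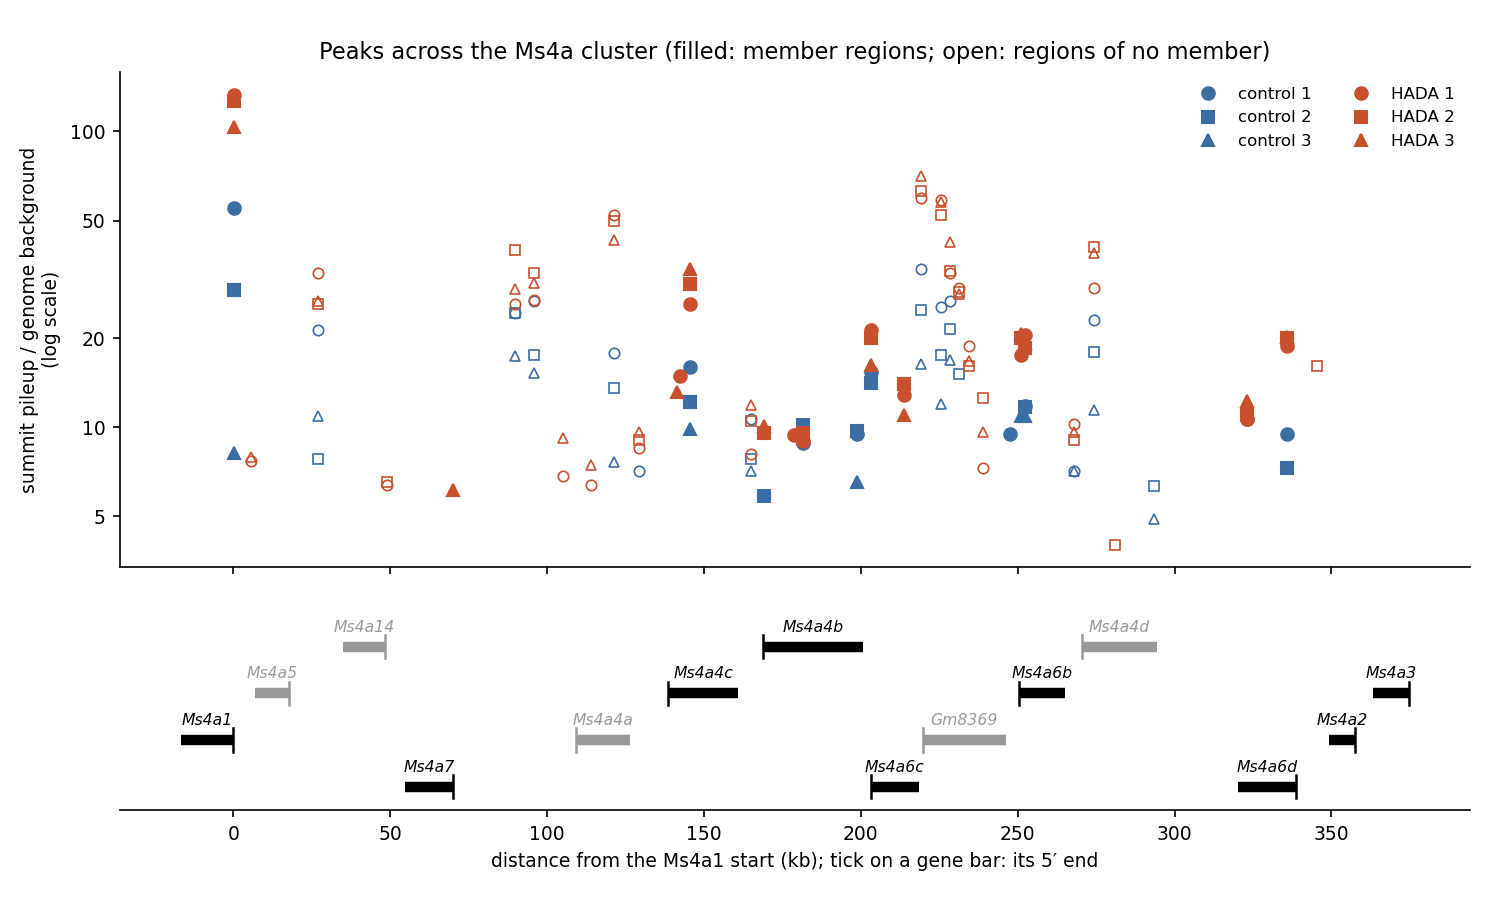
Summit pileup over the genome background of each library (log scale) for the 37 regions of the cluster against the distance of the summit from the Ms4a1 start in kb, with gene bodies below (black for members, grey for other genes). Filled symbols are member regions and open symbols other regions. The Ms4a1 start stands at 103 to 133 times background in the HADA libraries and 8.20 to 55.1 times in the control libraries, and is the tallest of the 37 in 5 of the 6 libraries.

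Sequences were read at the summit of each member's region nearest a start, among regions with a peak in 5 or 6 libraries where it had one, from GRCm39 on the strand of the gene. They are shown for Ms4a1 and Ms4a4c, whose regions differed between the groups, and for Ms4a6b and Ms4a6c, whose near identity limits how reads are placed. The Ms4a1 sequence covers chr19:11243733-11243933 on the minus strand, 228 bp from a start at its centre. The Ms4a4c sequence covers chr19:11389092-11389224 on the plus strand, the part of the summit window that lies upstream of the exon of that start, with motif matches in capitals.
Ms4a1: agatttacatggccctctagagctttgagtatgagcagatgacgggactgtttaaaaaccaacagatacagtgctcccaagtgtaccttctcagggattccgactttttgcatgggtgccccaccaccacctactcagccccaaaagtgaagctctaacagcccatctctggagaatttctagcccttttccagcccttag
Ms4a4c: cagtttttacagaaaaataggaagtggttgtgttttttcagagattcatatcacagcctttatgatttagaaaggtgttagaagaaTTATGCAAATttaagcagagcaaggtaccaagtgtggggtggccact

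Motifs of 8 factors were searched on both strands in the 201 bases around each summit. For B cell factors the letters were CCCNNGGGA for EBF and ATTTGCAT for the octamer of the POU factors. For T cell factors they were TGTGGTT for RUNX and CTTTGAA for TCF. For myeloid factors they were GAGGAAGT for PU.1 and TTGCNNAA for CEBP, and in addition CCGGAAGT was searched for ETS and AGATAA for GATA. The Ms4a4c window held the octamer letters and, overlapping them, the CEBP letters. The octamer letters were present in 1.51% and the CEBP letters in 7.65% of windows at the 23970 regions with a peak in all 6 libraries. The window of Ms4a7 held the ETS letters, which 2.56% of those windows held. The windows of Ms4a1, Ms4a4b, Ms4a6b, Ms4a6c and Ms4a6d held none of these letters. The other motifs were present in 4.91% (EBF), 4.05% (PU.1), 5.89% (RUNX), 3.07% (TCF) and 5.41% (GATA) of all windows.

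The start windows of the T cell gene Ms4a6b and the myeloid gene Ms4a6c were close to identical. They aligned over 195 bases with 192 identical bases, or 98.5%. The stretch of 30 bases below, with differing bases in capitals, lies at chr19:11495972-11496001 for Ms4a6b and at chr19:11446854-11446883 for Ms4a6c.
Ms4a6b: gttaaggctcttCgggttCctgagagctcg
Ms4a6c: gttaaggctcttAgggttTctgagagctcg

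The 50 bases at each summit were searched for near copies in the cluster and 100 kb on either side, not in the rest of the genome. For both of these windows the closest copy was at the other gene and had 2 mismatches. The closest copy also had 2 mismatches for the Ms4a4c summit shown above, inside Gm8369, and for the intronic Ms4a6d summit described below, inside Ms4a6b. Reads at these summits could be placed at the wrong copy, and the values of Ms4a6b, Ms4a6c, Ms4a4c and Ms4a6d are uncertain to that extent. The window of Ms4a4b shared a shorter stretch with that of Ms4a4c, with 43 identical bases of 50 aligned columns, or 86.0%. The 50 bases at the Ms4a4b start summit had a copy with 1 mismatch, and those of another Ms4a4b region, called in HADA 1 alone, were present 3 times in the genome. Values of Ms4a4b are therefore uncertain too. The closest match of the Ms4a1 summit in this stretch had 20 mismatches.

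The libraries held 34045 to 41475 peaks in controls and 44044 to 45799 in HADA. The genome background, which stands for relative depth, was 1.69 to 2.05 overlapping fragments in controls and 1.99 to 2.34 in HADA, and a summit needed at least 7 to 9 fragments to be called in any library. The summit pileup, the number of fragments over the highest base of a peak, was divided by this background to give the levels below. Over all shared regions, the median level was 0.38 higher in HADA on the log2 scale, and the limma test was run on values centred in each library on its median, so its differences are relative to that shift. By this test, 17.9% of the 23970 shared regions passed an adjusted p of 0.05 as higher in HADA and 24.1% as lower. Without centring these were 31.0% and 18.3%, in a fit that gave every region the same pooled SE (0.30 on the log2 scale), so which direction held more calls turned with the scaling. Control 3 stood apart from the other controls, with the fewest peaks and the highest neutrophil and lowest B cell marker levels.

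The number of member peaks per library was 11, 8 and 5 in controls and 12, 11 and 13 in HADA. The groups overlapped, since control 1 and HADA 2 both had 11. The mean difference was 4 peaks (8 ± 3 against 12 ± 1, SD, n = 3; two-sided exact permutation p = 0.2, where 0.1 is the smallest p that 3 against 3 libraries can give). Without control 3 the difference was 2.5 peaks. The groups did not overlap at a −log10 q-value of at least 5 (a difference of 4.67), with peaks within 1 kb of a start or in the gene body (4.33), or with the same number of strongest peaks taken from each library, where the difference was 2 peaks (exact permutation p = 0.1 for each). Per 10000 peaks of the library, the values were 2.02 ± 0.596 in controls and 2.68 ± 0.172 in HADA (SD, n = 3; exact permutation p = 0.2). Of the 16 member regions, 3 had a peak in all 6 libraries, 4 in 5 libraries and 5 in a single library.

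Ms4a1, the B cell member, carried the tallest of the 37 regions within the 391 kb of the members in 5 of the 6 libraries. Its region (chr19:11243162-11244419) spans the start of the gene, with its summit upstream of it and inside an intron of 4930526L06Rik. The level was 55.1, 29.2 and 8.20 times the genome background in control 1, control 2 and control 3, and 133, 127 and 103 times in HADA 1, HADA 2 and HADA 3. Every HADA library lay above every control library, and control 3 stood far below the other controls. The mean was 30.8 ± 23.5 in controls and 121 ± 15.8 in HADA (SD, n = 3), 3.93 times as high.

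After centring, the Ms4a1 region was 1.97 ± 0.54 higher in HADA on the log2 scale (SE, n = 3 against 3; limma, Benjamini-Hochberg adjusted p = 0.0234). Without control 3 the difference was 1.27 (limma adjusted p = 0.0114). Leaving out HADA 1, HADA 2 or HADA 3 in turn raised the adjusted p to 0.0601, 0.0708 and 0.0537, so the call was lost without any one of them while the difference stayed between 1.93 and 2.04. The call was also lost when the fold over local background was tested in place of the pileup (0.34 on the log2 scale, limma adjusted p = 0.326).

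MACS2, the peak caller, averages a local background over a window around each peak. The window takes in the fragments of the peak itself, so this background in part restates the height of the summit and does not measure the surroundings alone. At Ms4a1 this was 4.25, 2.82 and 1.00 times the genome background in the 3 controls and 10.8, 10.2 and 10.0 times in the 3 HADA libraries, so the mean local background was 3.84 times as high in HADA and the mean summit 3.93 times. The fold of summit over local background was 11.5, 8.98 and 5.65 in controls and 11.9, 11.9 and 9.93 in HADA. On that scale the groups overlapped, since control 1 lay above HADA 3 (exact permutation p = 0.2).

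**Figure D2:**
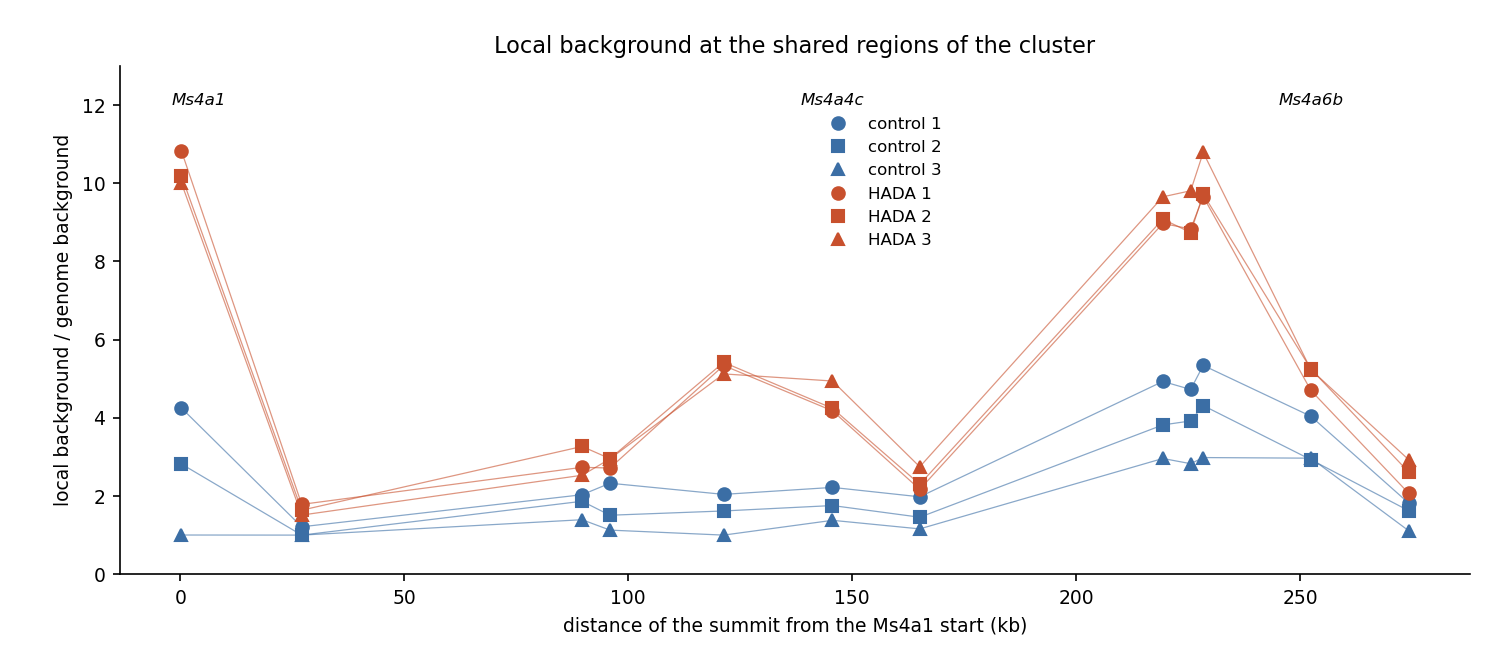
Local background over genome background at the 12 regions of the cluster with a peak in all 6 libraries, against the distance from the Ms4a1 start in kb; lines join the points of a library and measure nothing between them. At each of the 12 regions the HADA values exceeded those of every control, with the widest gap at Ms4a1 (1.00 to 4.25 against 10.0 to 10.8).

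Along the cluster, the local background of the HADA libraries lay above that of the control libraries at 12 of the 12 shared regions, including 3 of 3 member regions. This was not centred, and 45.7% of all shared regions in the genome were apart in the same way. The summits of 11 of the 12 were also apart before centring, a count whose share over all shared regions was not computed. Since each background contains its own peak, and neighbouring windows can share fragments, the count of 12 is no separate support. The local background was 1.38 to 2.22 against 4.18 to 4.94 at Ms4a4c and 2.93 to 4.04 against 4.70 to 5.25 at Ms4a6b.

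Among the myeloid members, Ms4a4c had a peak in every library, at an internal start (chr19:11389027-11389644, summit 33 bp from the start). Its level was 16.0, 12.2 and 9.84 in controls and 26.1, 30.6 and 34.3 in HADA. The groups did not overlap, and the means were 12.7 ± 3.11 and 30.3 ± 4.13 (SD, n = 3). The centred difference was 0.90 ± 0.20 on the log2 scale (SE, limma adjusted p = 0.0139). The adjusted p rose to 0.0562 without HADA 2, where the difference was 0.90, and to 0.0526 without HADA 3, where it was 0.76, and the log2 fold over local background differed by 0.06 (limma adjusted p = 0.706). A further Ms4a4c region was called in HADA 3 alone, at a level of 13.2, and another in HADA 1 alone.

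Ms4a6c had a region 84 bp from a start (chr19:11446729-11447323), in its UTR. The level was 15.4 in control 1 and 14.1 in control 2, with no peak in control 3, and 21.4, 20.1 and 16.3 in HADA. All 3 HADA values were above both called controls. In a fit added after the data were seen, which took regions with a peak in 5 or 6 libraries and dropped the missing library, the centred difference was 0.06 ± 0.20 on the log2 scale (SE, limma adjusted p = 0.840). Control 3 was left out of this value for having no peak, so a low control would be missing from it. The same holds for the other values of the added fit, except that control 2 was the missing library at the second Ms4a6b region. With control 3 placed at the calling floor, the HADA mean was 1.70 times the control mean before centring.

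An intronic Ms4a6c region (chr19:11457061-11457727) had a peak in each HADA library and in no control library. The levels were 12.8, 14.1 and 11.0 in HADA. A control peak would have had to clear a local background that stood at 2.96 to 4.93 times the genome background at the neighbouring region by Gm8369, so the missing calls give no control level. Of all 62876 regions, 7.01% had this pattern, so 1 of 16 member regions is near the background share. No member region had it when summits within 200 bp were used to merge peaks, or at the stricter q-value.

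Ms4a6d had a region in an intron 2751 bp from a start (chr19:11578741-11579670). Its level was 9.48 in control 1 and 7.30 in control 2, with no peak in control 3, and 18.8, 20.1 and 20.2 in HADA. The HADA values were all above the called controls. With control 3 dropped, in the added fit, the centred difference was 0.92 ± 0.19 on the log2 scale (SE, limma adjusted p = 0.0128). A further region at Ms4a6d had a peak in control 1 and in all 3 HADA libraries, at 10.7 to 12.3.

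Ms4a7, a gene of tissue macrophages, had 1 peak in the whole series, 48 bp from a start in HADA 3, at 6.16 times background. In the other 5 libraries no Ms4a7 peak was called, where the calling floor, the lowest pileup called in any peak of a library, stood at 3.85 to 4.37 times background, so lower levels could not be seen at this depth.

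**Figure D3:**
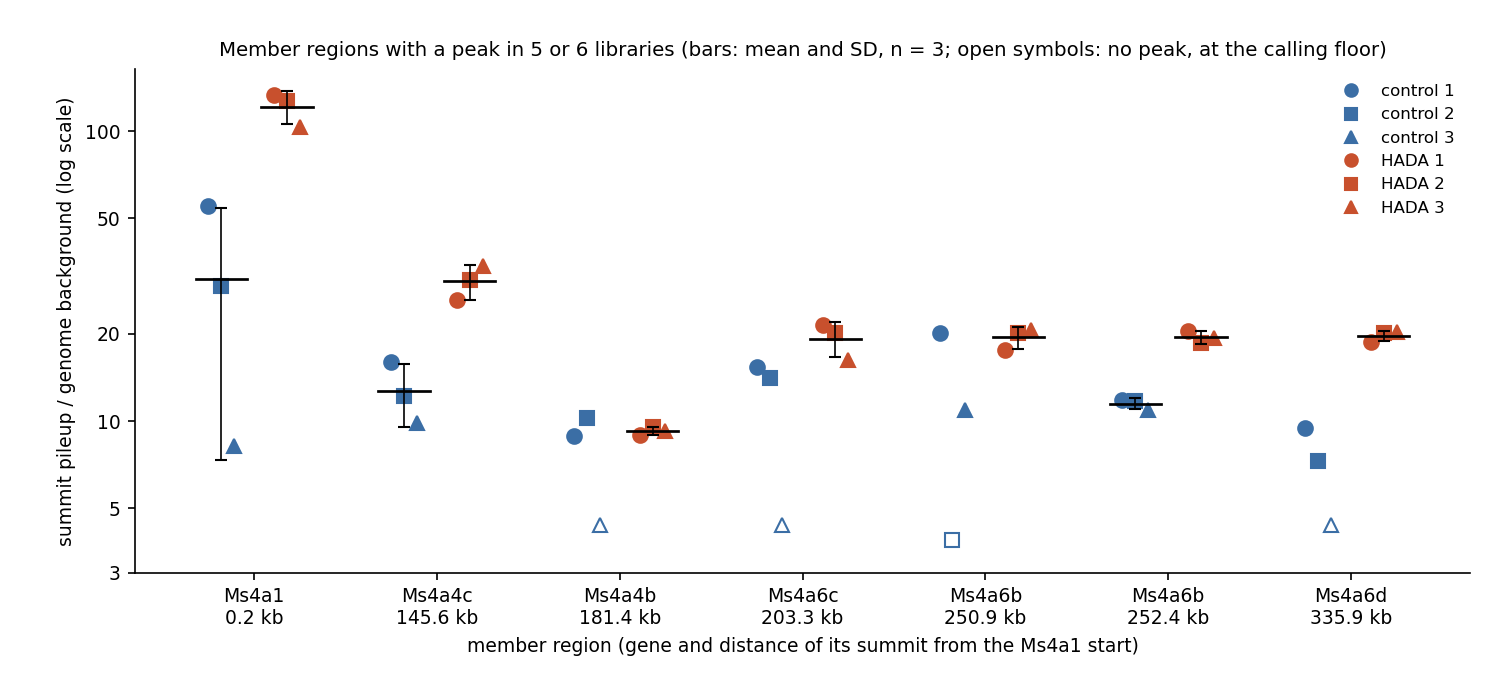
Summit pileup over genome background (log scale) of the 7 member regions with a peak in 5 or 6 libraries, by library, with mean and SD where all 3 libraries of a group had a peak. Open symbols mark libraries without a peak, drawn at the calling floor. As drawn, Ms4a1, Ms4a4c, the Ms4a6b start region and the regions of Ms4a6c and Ms4a6d separate the groups, the latter 2 with control 3 at the floor, while Ms4a4b has 8.89 to 10.2 in called controls and 8.97 to 9.54 in HADA.

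The T cell member Ms4a4b, a modulator of T cell activation, was low in every library. Its region 128 bp from a start (chr19:11424741-11425278), in the UTR, stood at 8.89 in control 1 and 10.2 in control 2, was not called in control 3, and stood at 8.97, 9.54 and 9.23 in HADA. The groups overlapped. In the added fit the centred difference was −0.36 ± 0.23 on the log2 scale (SE, limma adjusted p = 0.238). The tallest Ms4a4b peak of each library, whatever its place in the gene, averaged 8.75 ± 1.94 in controls and 9.68 ± 0.378 in HADA (SD, n = 3; exact permutation p = 0.8).

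Another Ms4a4b region near the end of the gene (chr19:11442195-11442605) was called in each control library and in no HADA library, at 9.48, 9.74 and 6.56. Of all regions, 1.88% had this pattern. At the next region, by the Ms4a6c start, the local background was 3.64 to 4.24 times the genome background in HADA against 2.64 to 2.74 in the 2 called controls, and a summit must be taller to be called where the local background is higher. The absence of a HADA peak is therefore no measure of a lower pileup, and the region was lost from the count at the stricter q-value.

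Ms4a6b, also known from T cells, had a region 39 bp from a start (chr19:11495774-11496405) in every library. Its level was 11.8, 11.7 and 10.9 in controls and 20.5, 18.6 and 19.3 in HADA. The groups were well apart, at 11.5 ± 0.488 and 19.5 ± 0.972 (SD, n = 3), yet relative to the median region the difference was 0.38 ± 0.17 on the log2 scale and did not pass (SE, limma adjusted p = 0.101). Without centring it was 0.76 and passed (limma adjusted p = 0.0266), by the SE pooled over all regions rather than that of this region. A second Ms4a6b region (chr19:11493824-11495024) was at 20.1 and 10.9 in control 1 and control 3 and at 17.5 to 20.7 in HADA. Control 2 had no peak there and was dropped from the added fit, in which the region differed by 0.07 (limma adjusted p = 0.840).

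Ms4a2 and Ms4a3 had no peak in any of the 6 libraries. Of the list of 12 basophil, mast cell and eosinophil markers, 5 likewise had no peak in any library, among them Fcer1a, the alpha chain of the same IgE receptor, and the basophil protease Mcpt8. Others of the list had peaks. Cd200r3 had one in all 6 libraries, at 51.0 to 117 times background, and Hdc, the histidine decarboxylase of these cells and of neutrophils, reached 94.1 to 384 times background.

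Over the members, 2 of the 3 tested regions were higher in HADA and 0 were lower, beside 17.9% and 24.1% of all shared regions. In 3 of 3 the HADA libraries exceeded every control after centring, which 29.4% of all shared regions did. The median centred difference of the 3 was 0.90 against −0.04 over all shared regions. Of the 9 shared regions in the cluster that belong to no member, 5 were higher and 0 lower, with a median of 0.71. They included a region in an intron of Ms4a4a (1.59 ± 0.25 on the log2 scale, SE, limma adjusted p = 0.00903) and one 358 bp from the start of Gm8369 (1.03 ± 0.23, SE, limma adjusted p = 0.0140). The latter (chr19:11461559-11463584) reached 59.4 to 70.8 times background in HADA and 16.4 to 34.4 in controls, and 3 of the member peaks of Ms4a6c were summits in its shoulder.

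The annotation holds 12 other Ms4a genes on the chromosome. Ms4a15, Ms4a20, Ms4a4a and Ms4a4d had a peak in all 6 libraries, Ms4a19 in 4 and Ms4a14 in 2. Ms4a5, Ms4a8a, Ms4a10, Ms4a12, Ms4a13 and Ms4a18 had none.

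To set the lineages against each other, the tallest summit pileup of each gene was compared within a library, so that no scaling between libraries entered. A gene without a peak was put at the calling floor of the library. This is a placeholder and no bound, since a summit above the floor can go uncalled where the local background is raised. The Ms4a1 summit was 5.81, 2.86 and 1.25 times as tall as the tallest Ms4a4b summit in controls and 14.2, 13.3 and 10.2 times as tall in HADA. The tallest Ms4a4b peak of HADA 1 was the one whose 50 summit bases occur 3 times in the genome (22 fragments, beside 21 at the start region). The groups did not overlap. The log2 ratio was 1.46 ± 1.11 in controls and 3.64 ± 0.251 in HADA (SD, n = 3), a difference of 2.18. With the fold over local background in place of the pileup the difference was 0.53 and the groups overlapped (exact permutation p = 0.3), and they also overlapped at a −log10 q-value of at least 5 (2.00, exact permutation p = 0.2). With the pileup, the two-sided exact permutation p was 0.1, the smallest possible, as it was for each of the 3 lineage comparisons and after adjustment over them.

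Against the mean log2 pileup of the myeloid members Ms4a6c, Ms4a6d and Ms4a7, the log2 ratio of Ms4a1 was 1.85 ± 0.878 in controls and 3.19 ± 0.176 in HADA (SD, n = 3), a difference of 1.35. As computed the groups did not overlap, and without control 3, where none of these 3 genes had a peak, the difference was 0.88. Ms4a7 stood at the floor in 5 libraries and all 3 genes did in control 3, so the ratios hang on that placeholder, and neither the difference nor the separation of the groups is fixed. The tallest Ms4a6c peaks of HADA 1 and HADA 2, at 29.1 and 34.6 times background, were shoulders of the region by Gm8369. Without the shoulder peaks, an alternative chosen after the data were seen, the difference was 1.48 and the groups stayed apart. With the fold over local background in place of the pileup the difference was −0.06 and the groups overlapped. With Ms4a4c as the myeloid member, chosen after the data were seen because it has a peak in every library, the difference was 1.07 and the groups overlapped (exact permutation p = 0.2).

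Ms4a4b against the same myeloid members went the other way. The log2 ratio was 0.11, 0.47 and 0.58 in controls and −0.45, −0.56 and −0.32 in HADA, and the groups did not overlap. The difference was −0.83 (exact permutation p = 0.1). The same placeholder enters here, for Ms4a7 in 5 libraries and for all 3 genes in control 3, so neither the signs nor the difference are fixed. Without the shoulder peaks by Gm8369 it was −0.69. With peaks within 1 kb of a start, the difference was 0.05 and the groups overlapped (exact permutation p = 0.8), and at a −log10 q-value of at least 5 it was −0.66 and they also overlapped (exact permutation p = 0.4). With Ms4a4c added to the 3 genes, the difference was −0.90 (exact permutation p = 0.1). With Ms4a4c as the only myeloid member it was −1.11, and Ms4a4b was then the lower in all 6 libraries.

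**Figure D4:**
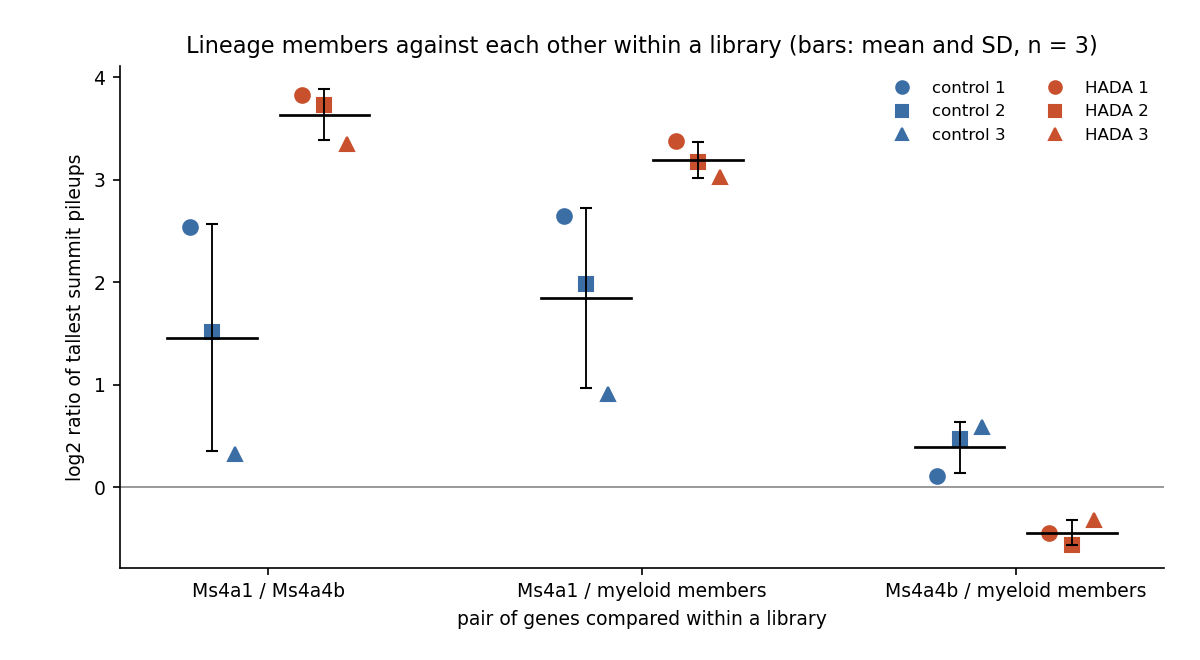
Log2 ratio of the tallest summit pileups of the B cell member Ms4a1, the T cell member Ms4a4b and the myeloid members within each library, with mean and SD (n = 3). For each pair the 3 HADA libraries lie on 1 side of the 3 control libraries; Ms4a1 to Ms4a4b averages 1.46 in controls and 3.64 in HADA.

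The marker lists of the lineages give the levels of other genes beside these. A gene without a peak adds nothing to a sum. The sums were not centred, and the median level of all shared regions was 0.38 higher in HADA on the log2 scale. The limma counts of start regions stand beside 17.9% higher and 24.1% lower over all shared regions. The B cell list of 12 genes summed to 292 to 508 times background in controls and 821 to 909 in HADA. Cd37, which other leukocytes also express, made up 232 of the 292 in control 3, and without it the sums were 60.7 to 298 in controls and 632 to 671 in HADA. Of its 6 start regions with a peak in all libraries, 5 were higher and 0 lower by limma, and the groups did not overlap in the sum. Control 3 had a peak at 7 of the 12 genes, and its Cd79a, Cd22, Blk, Cr2 and Fcer2a had none. At Pax5, the B cell identity factor, the centred difference was 2.02 on the log2 scale (limma adjusted p = 0.0115), beside the 1.97 of Ms4a1. The part of B cell number in the Ms4a1 result was not tested.

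The T cell list summed to 303 to 412 in controls and 476 to 536 in HADA. Of its start regions, 2 of 9 were higher and 1 lower, which is near or below the shares of all shared regions. The higher regions were those of Cd3e and Lat, parts of T cell receptor signalling, at 0.55 and 0.93 on the log2 scale (limma adjusted p = 0.0335 and 0.0111), and the lower was Cd6 at −1.43 (limma adjusted p = 0.0199). The NK cell list summed to 24.6 to 72.9 in controls and 77.3 to 98.9 in HADA, with 0 of 2 start regions called.

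The monocyte list summed to 288 to 396 in controls and 233 to 270 in HADA, with 8 of 9 start regions lower and 0 higher (median −1.22 on the log2 scale). Among them were Csf1r, the receptor for macrophage colony-stimulating factor, at −0.91 and Cd14, the lipopolysaccharide coreceptor, at −1.92 (limma adjusted p = 0.0256 and 0.00805). Not all genes of the list were lower. Before centring, the tallest peaks of Ly6c2, Ccr2 and Irf5 were above every control in each HADA library. After centring, the start region of Irf5 differed by −0.04 (limma adjusted p = 0.866), and Ly6c2 and Ccr2 had no start region in the test. Ly6c2, which marks classical monocytes, stood at 15.1 to 23.7 in controls and 33.4 to 41.9 in HADA. The neutrophil list summed to 318 to 782 in controls and 160 to 284 in HADA, with 7 of 8 start regions lower and 0 higher (median −1.46). The ratio of HADA to control mean sums was 1.40 for the T cell, 0.72 for the monocyte and 0.42 for the neutrophil list. The ratio of Ms4a4b to the myeloid members ran the opposite way, being lower in HADA. It describes those genes and does not stand for T cells against myeloid cells. Ms4a4c and Ms4a6d were higher in HADA, unlike most tested start regions of the monocyte and neutrophil lists. The part of cell composition in the values of Ms4a4b, Ms4a4c and Ms4a6d was not tested.

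The list of basophil, mast cell and eosinophil markers overlapped between groups, at 310 to 470 in controls and 252 to 325 in HADA, with 2 of 3 start regions lower. Without Hdc the sums were 85.8 to 171 and 158 to 191. The lower start regions were those of Hdc and Siglecf, at −2.00 and −0.59 on the log2 scale (limma adjusted p = 0.0111 and 0.0351). That of Cd200r3 differed by 0.25 (limma adjusted p = 0.297). Before centring, the tallest peaks of Prg2, Il5ra and Il4, genes of eosinophils and basophils among others, were above every control in each HADA library. Prg2 stood at 8.75 to 18.4 in controls and 35.6 to 53.2 in HADA. Prg2, Il5ra and Il4 had no start region in the test. The erythroid and platelet list summed to 76.5 to 90.0 in controls and 163 to 194 in HADA, with 2 of 2 start regions higher. Klf1 alone gave 57.9 to 75.8 of the control sums and 120 to 153 of the HADA sums. After centring, its start region was 0.64 higher on the log2 scale (limma adjusted p = 0.0194). Of the 10 genes of the list, 5 had no peak in any library. Among them were the globin gene Hba-a1 and Alas2, which starts haem synthesis.

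**Figure D5:**
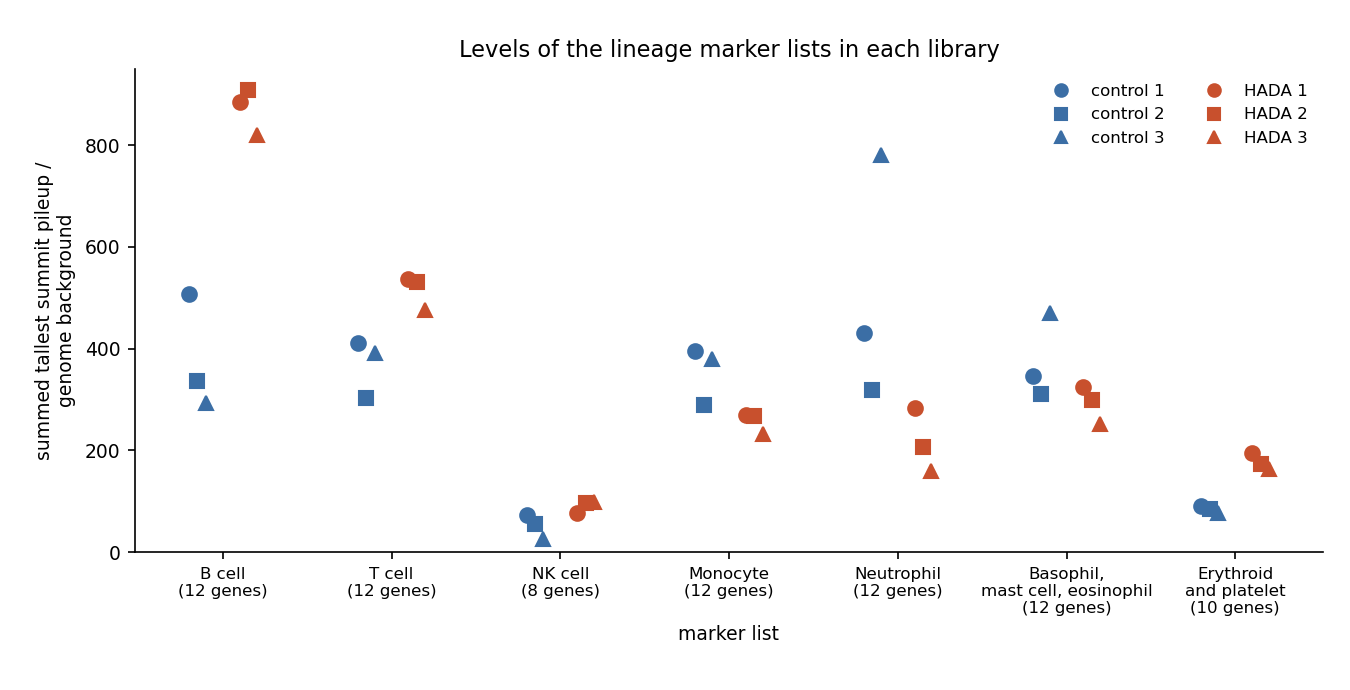
Sum over each marker list of the tallest summit pileup of its genes over genome background, by library. The sums are not centred, and a gene without a peak adds nothing. The B cell sums are 292 to 508 in controls and 821 to 909 in HADA, and control 3 has the highest neutrophil sum (782).

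The profile of Ms4a1 over the 6 libraries was compared with that of the start regions of 11029 other protein-coding genes, each taken about its own mean on the centred log2 scale. The smallest root mean square difference was that of Tnfrsf13c, the BAFF receptor of B cells, at 0.13, followed by Bnip1 at 0.15, Pxdc1 at 0.17, Bfsp2 at 0.20 and Gpr176 at 0.25. The median over all genes was 1.21. These profiles share the libraries and their composition, so the likeness is a description. The start regions of Ms4a4b and Ms4a6c lacked a peak in control 3 and were not compared in this way.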

How the data were processed

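ATAC-seq of 3 control and 3 HADA libraries was analysed. Per the labels and methods, the authors used FastQC, Trimmomatic, Bowtie2 (GRCm39), Picard duplicate removal and MACS2, on each library alone; MACS2 options and Tn5 shift were not given in the sources used here. The methods name leukocytes, the study's results text mononuclear cells. The deposited lists hold a score, a fold ratio of summit over local background, −log10 p-values, −log10 q-values and positions. Fold and −log10 p-value were solved for the summit pileup and local background, returning the deposited p-value within 1% for 100% of peaks on the 21 main chromosomes. Pileup was tested rather than fold because the fold is relative to local background and need not follow height. Total read counts were not analysed here.

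Peaks sharing 1 bp were merged. Regions with a peak in all 6 libraries were compared with limma 3.58.1 (R 4.3.3) on log2 pileup, centred on each library's median, with Benjamini-Hochberg adjustment over 23970 regions and a threshold of 0.05. The fit was also run on simulated data drawn on these regions with independent errors, and the outcome is not given here. Single values per library were compared by two-sided exact permutation tests (scipy 1.17.1). Genes came from the GENCODE annotation of GRCm39, and all 78 marker genes were matched.

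Members, marker lists and tests were chosen with earlier results of these data known. Named regions were those nearest a start, those called by limma and those found in 1 group only. Alternatives changed the value tested, centring, variance trend, q-value limit, number of peaks, merging, distance to a start, uniqueness of the summit sequence, libraries used and the replicate block. The same replicate numbers gave deviation correlations of −0.08, 0.08 and −0.38, and differing numbers gave −0.47 to 0.49. The deviations were taken about means of 3 libraries, which ties these values to each other. They cannot tell whether the numbers pair the samples.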

Additional observations from a re-analysis of the deposited data

How the results depend on the processing

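The number of member regions called by limma was 2 of 3 with the pileup and 0 with the fold rank or the centred log2 fold; it ranged from 0 to 2 when 1 library was left out. None of these 3 regions, of 16 member regions, was reversed; the others were not tested in all alternatives, for lack of a peak in every library. With the replicate block, which rests on a number alone, both called regions stayed called (2 of 3), while calls over all regions were 2991 higher and 5660 lower against 4291 and 5769. Over all regions, the fold rank called 1574 higher and 1146 lower, the log2 fold 1116 and 1277, and leaving out 1 library 801 to 4656 higher and 2056 to 5842 lower.

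The difference in member peaks was 2.5 to 5.5 when 1 library was left out and 4 in the paired fit with the replicate block. Ms4a1 against Ms4a4b ranged from 1.61 to 2.72, Ms4a1 against the myeloid members from 0.88 to 1.75, and Ms4a4b against them from −0.97 to −0.73 when 1 library was left out; with the replicate block the paired exact permutation p was 0.25 for each, the smallest it can give with 3 pairs. Ms4a1 against the myeloid members reversed to −0.064 with the fold, and Ms4a4b against them to 0.049 with peaks within 1 kb of a start, where Ms4a6d has none and stands at the floor. The cause was not tested further. The Ms4a1 to Ms4a4b difference was 0.53 with the fold and 2.00 at a −log10 q-value of at least 5, where the groups overlapped in both.

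Regions in HADA alone were 1 and in control alone 1. Both counts were 0 at a −log10 q-value of at least 5 and with the same number of strongest peaks, the HADA count was also 0 when summits were merged, and without 1 library they ranged from 1 to 2 and stayed at 1. Member peaks other than those of Ms4a1 rest on 12 to 78 fragments at the summit, and the Ms4a1 peak of control 3 on 15, which limits their precision.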

Other observations

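Other Ms4a genes of the chromosome, outside the 9 members, differed in height. The tallest peak of Ms4a15 stood at 66.9, 33.1 and 67.2 times the genome background in controls and 70.5, 58.2 and 58.9 in HADA, with the groups overlapping. That of Ms4a4a stood at 17.8, 13.6 and 7.65 in controls and 52.1, 49.7 and 43.1 in HADA, and that of Ms4a4d at 11.5 to 23.1 against 29.5 to 40.7. Ms4a20 reached 23.4 to 30.8 in controls and 37.2 to 42.7 in HADA. In the last 3 genes every HADA library lay above every control, on a scale that was not centred. The share of all genes that did so was not computed. Ms4a19 stood at 5.33, 13.1 and 4.92 in controls and 5.13 in HADA 1, with no peak in HADA 2 or HADA 3. Ms4a14 had a peak only in HADA 1 and HADA 2, at 6.41 and 6.53.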
